A study of Homo sapiens with 11 samples.

Results

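The glucose-trapping and rate-setting kinases of glycolysis were examined in RWPE1 cells, a non-tumorigenic and immortalized human prostate epithelial line, over a hypoxic time course. The genes are the hexokinases HK1 and HK2, the phosphofructokinases PFKL, PFKM and PFKP, and the PFKFB enzymes PFKFB2, PFKFB3 and PFKFB4. They were taken from the count table by symbol, 8 genes of 60676, and all 8 passed the filter on low counts that kept 19981 genes for testing. The 11 RNA-seq libraries comprised 3 of untreated cells in normoxia (the 0 h group) and 8 of cells kept at 1% oxygen, of which 3 had 6 h of hypoxia, 3 had 12 h and 2 had 24 h. The remaining 24 h library was not analysed here. All cells grew in a serum-free keratinocyte medium with bovine pituitary extract, EGF, penicillin, streptomycin and amphotericin. The medium of the hypoxic cells also held 10 mM HEPES, so that oxygen and buffer cannot be told apart in any comparison with 0 h. No source used here says whether replicates were separate cultures, and p-values then measure the spread between these libraries, which may be technical.

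Glucose that enters a cell is phosphorylated by a hexokinase, which keeps it inside and commits it to metabolism. Phosphofructokinase catalyses the next committed step, and its activity is set largely by the allosteric activator fructose 2,6-bisphosphate. The PFKFB enzymes make and break down that activator, with a balance of kinase and phosphatase activity that differs between isoforms and is most kinase-biased in PFKFB3. HK1 is the widely expressed hexokinase, whereas HK2 is known as the inducible form of muscle, fat and many tumours. PFKL, PFKM and PFKP are named for liver, muscle and platelet and assemble into tetramers. HK2, PFKFB3 and PFKFB4 are textbook targets of the hypoxia-inducible factors (HIFs), which bind short DNA motifs with the core ACGTG or GCGTG.

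The libraries held between 27496009 and 49488345 counted reads, and levels are given as CPM, the counts scaled to a common library size with TMM factors. TMM factors ran from 0.539 in 24 h replicate 2 to 1.32 in normoxia, and the biological coefficient of variation of the fit was 19.6%. As a check of the label, the basal keratins KRT5, KRT14 and KRT17 and the basal factor TP63 were present with at least 1396 counts in every library. The 10 basal and simple epithelial markers summed to 12760 to 16170 CPM at 0 h and to 20570 to 58720 CPM in hypoxia, a sum carried by KRT5, KRT14 and KRT17. Within the list 6, 7 and 7 markers were called higher and 2, 2 and 3 lower at 6, 12 and 24 h. Of all tested genes, 25.1%, 24.2% and 29.9% were called higher and 27.7%, 27.1% and 31.3% lower at these times. TP63 fell from a mean of 242 CPM at 0 h to 73.5, 125 and 85.7 CPM and KRT15 from 292 to 88.0, 121 and 139.5 CPM, and CDH1 was lower at 24 h, at 156 against 324 CPM. The simple keratins KRT8 and KRT18 rose from 143 and 102 CPM at 0 h to 385 and 317 CPM at 6 h. Of the luminal markers, KLK2 and KLK3 had at most 1 count in any library, and the list of 7 summed to 3.43 to 6.63 CPM over all libraries. The 11 stromal, endothelial, blood and neuroendocrine markers summed to 51.2 to 64.6 CPM at 0 h and 31.2 to 50.2 CPM in hypoxia, mostly COL1A1, with COL1A2, DCN and CDH5 at 3 counts or fewer. The part of these shifts in the results below was not tested. In bulk RNA, fewer cells of a type and less RNA per cell cannot be told apart.

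The sequences before the transcription starts of members called higher at every hypoxic time are shown because the question of HIF motifs bears on them. HK1, called higher at 12 and 24 h only, is not shown. The sequences come from RefSeq on GRCh38.p14, in which 7 of the 8 members matched an entry and PFKFB2 did not. Each sequence was read from up to 250 bases before a listed start. Bases annotated as untranslated region of any protein-coding gene were left out, exons of noncoding genes were not, and the longest remaining stretch was kept. That of PFKFB4 therefore spans only offsets -179 to -88 from its start, and that of PFKFB3 spans -250 to -67. Capitals mark ACGTG or GCGTG on either strand, so that CACGT and CACGC are matches on the other strand and CACGTG holds 2 overlapping matches of ACGTG. HK2 has 2 listed starts, which lie at chr2:74833877-74834126 and chr2:74834920-74835169 on the plus strand. The PFKP sequence is chr10:3068939-3069188 and that of PFKFB3, before the start in its second listed promoter, is chr10:6202682-6202865, both on the plus strand. The PFKFB4 sequence is chr3:48556891-48556982 on the minus strand.
HK2 upstream start: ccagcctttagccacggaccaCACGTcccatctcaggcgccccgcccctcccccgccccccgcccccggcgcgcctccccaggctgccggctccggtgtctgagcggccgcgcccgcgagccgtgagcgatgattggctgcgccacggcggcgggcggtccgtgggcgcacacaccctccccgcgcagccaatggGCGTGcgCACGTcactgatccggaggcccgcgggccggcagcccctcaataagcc
HK2 downstream start: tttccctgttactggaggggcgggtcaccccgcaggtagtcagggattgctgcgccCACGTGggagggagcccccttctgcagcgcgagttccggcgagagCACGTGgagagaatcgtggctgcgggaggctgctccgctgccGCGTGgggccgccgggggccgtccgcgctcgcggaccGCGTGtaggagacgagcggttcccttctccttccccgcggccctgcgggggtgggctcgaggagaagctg
PFKP: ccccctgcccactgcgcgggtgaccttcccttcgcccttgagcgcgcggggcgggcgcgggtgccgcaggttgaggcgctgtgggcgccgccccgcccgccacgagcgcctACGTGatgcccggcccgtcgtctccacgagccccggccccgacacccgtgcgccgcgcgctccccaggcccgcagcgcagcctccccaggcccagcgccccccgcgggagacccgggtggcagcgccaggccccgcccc
PFKFB3: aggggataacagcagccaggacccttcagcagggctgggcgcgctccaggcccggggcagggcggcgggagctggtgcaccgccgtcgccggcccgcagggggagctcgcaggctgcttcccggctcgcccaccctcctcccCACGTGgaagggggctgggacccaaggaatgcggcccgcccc
PFKFB4: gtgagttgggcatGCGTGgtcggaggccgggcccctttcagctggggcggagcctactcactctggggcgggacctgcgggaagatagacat

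The HK2 sequences held 3 and 6 matches, overlapping ones included. The PFKFB3 sequence held 2 overlapping matches in 1 CACGTG, the PFKP sequence held 1 ACGTG and the PFKFB4 sequence held 1 GCGTG. Over all 35116 RefSeq windows of 250 bases, 18.5% held ACGTG, 32.2% held GCGTG and 43.2% held at least 1 of the motifs, so that a match is common. Counted over whole windows, the members held a match in 10 of 24 windows (41.7%), with 1 of 7 for HK1, 1 of 1 for PFKL, 1 of 7 for PFKM and 2 of 4 for PFKP, and the printed windows were chosen from those with a match. The upstream HK2 window also overlaps an exon of the divergent noncoding gene HK2-DT, and the PFKFB3 window overlaps an exon of ENSG00000213994. The 1 HK1 window with a match held it outside the stretch kept. By the rule used for the printed sequences, HK1 thus had no match, although it was called higher at 12 and 24 h. Gene counts do not show which start was used, and a match is a description and not a binding site.

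Each hypoxic time was compared with normoxia to ask which isoforms of each family respond and how soon. At 6 h, 4 members were higher, 2 were lower and 2 were not called. At 12 h, 5 were higher and 0 were lower by edgeR, also at an unadjusted p under 0.05 and by limma-voom, whereas DESeq2 called PFKM lower (adjusted p = 0.0403). At 24 h, 5 were higher and 1, PFKFB2, was lower. HK2, PFKP, PFKFB3 and PFKFB4 were called higher at all 3 times, which held for 14.8% of all tested genes. A gene was called where edgeR's quasi-likelihood test gave a Benjamini-Hochberg adjusted p under 0.05 over the 19981 tested genes. Of these, 52.8% were called at 6 h (25.1% higher and 27.7% lower), 51.2% at 12 h (24.2% and 27.1%) and 61.2% at 24 h (29.9% and 31.3%), so that a call by itself sets a gene little apart. The libraries of the 2 groups did not overlap for 8 members at 6 h, 7 at 12 h and 7 at 24 h, beside 69.6%, 72.3% and 73% of all tested genes. The sizes differed more. The median log2 fold change of the 8 members was 0.62, 1.10 and 1.19 at 6, 12 and 24 h, beside 0.00, -0.03 and -0.06 over all tested genes. The 3 comparisons share the normoxic libraries. The plot of fold changes shows the isoforms of each family side by side.

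**Figure D1:**
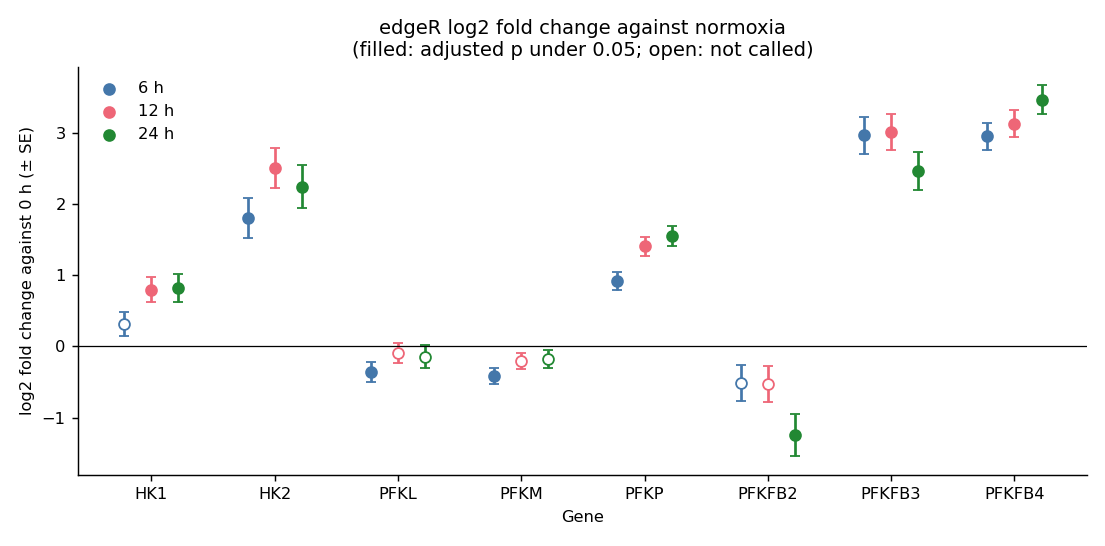
The y axis gives the edgeR log2 fold change of each member against the 3 normoxic libraries, with bars of 1 standard error, and colours give the time at 1% oxygen (n = 3 at 6 and 12 h, n = 2 at 24 h). Filled points had an adjusted p under 0.05 and open points did not. HK2, PFKP, PFKFB3 and PFKFB4 lie between 0.92 and 3.47, HK1 lies between 0.32 and 0.82 (near 0 at 6 and 24 h when libraries are scaled by their totals alone), and PFKL, PFKM and PFKFB2 lie below 0.

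HK2 was the more responsive of the 2 hexokinases. Its transcript stood at 156, 165 and 177 CPM in the normoxic libraries and at 618, 583 and 543 CPM after 6 h. It reached 619, 1005 and 1202 CPM after 12 h, and 1069.5 and 502 CPM after 24 h. Every hypoxic library lay above every normoxic one, which held for 20.5% of tested genes, and the lowest 12 h library lay just above the highest of 6 h, while the 24 h pair overlapped both earlier times. The log2 fold change was 1.81 at 6 h (SE 0.28, edgeR adjusted p = 0.000186), 2.51 at 12 h (SE 0.29, adjusted p = 2.87e-05) and 2.25 at 24 h (SE 0.30, adjusted p = 4.89e-05), or 3.51-fold, 5.69-fold and 4.74-fold. The pair at 24 h disagreed, with a log2 fold change of 1.54 without 24 h replicate 1 and 2.67 without replicate 2. HK2 (ENSG00000159399, chromosome 2, 74834127 to 74893359 on GRCh38) shares 249 of its 5844 transcript 75-mers with the processed pseudogene HK2P1, which had 1.51% to 3.62% as many counts as HK2. With HK2P1 counts added, an alternative chosen after the data were seen, the difference in mean log2 CPM was 1.81, 2.45 and 2.13 at 6, 12 and 24 h, and with HK2 counts alone this same measure was 1.81, 2.46 and 2.15.

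HK1 (ENSG00000156515, chromosome 10, 69269984 to 69401884) changed less. It stood at 346, 299 and 344 CPM in normoxia, at 408, 453 and 371 CPM after 6 h, at 522, 611 and 585 CPM after 12 h, and at 705 and 460.4 CPM after 24 h. All hypoxic libraries lay above the normoxic ones, which held for 20.5% of tested genes, and the 12 h libraries lay above those of 6 h. It was higher at 12 h, with a log2 fold change of 0.80 (SE 0.18, edgeR adjusted p = 0.00253), and at 24 h, with 0.82 (SE 0.19, adjusted p = 0.00271). At 6 h the log2 fold change was 0.32 (SE 0.17, adjusted p = 0.144), and the adjusted p was 0.0365 without 24 h replicate 1 and 0.0354 without 24 h replicate 2. Scaling by library totals alone turned the sign of HK1 at 6 h and 24 h, to -0.01 and -0.03, a scaling under which the median of all tested genes moved to -0.32 and -0.97. The 12 h call was also lost there, at 0.33 (adjusted p = 0.296), with the median of all tested genes at -0.50. Without 24 h replicate 1 the 24 h value was 0.43.

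Per length of exonic sequence, the hexokinase pool passed from mostly HK1 to mostly HK2. HK1 held 48.0 CPM per kb at 0 h beside 28.0 CPM per kb of HK2, and at 6 h the means were 59.8 and 98.2 CPM per kb. The HK2 share of the pair was 34.3%, 39.0% and 37.3% in the normoxic libraries and 63.7%, 59.9% and 62.9% after 6 h. It was 57.9%, 65.7% and 70.5% after 12 h, and 63.8% and 55.9% after 24 h. No hypoxic library came near a normoxic one in this share. With the longest transcript of each gene as its length in place of all exonic bases, the mean HK2 share was 26.3% at 0 h and 50.2%, 53.0% and 47.8% in hypoxia, so that which hexokinase leads in hypoxia depends on the length used, while the shift does not. The 2 levels summed to 76.0 ± 4.37 CPM per kb at 0 h and 158 ± 10.6, 243 ± 55.6 and 218 ± 92.9 CPM per kb at 6, 12 and 24 h (SD; n = 3, 3, 3 and 2).

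**Figure D2:**
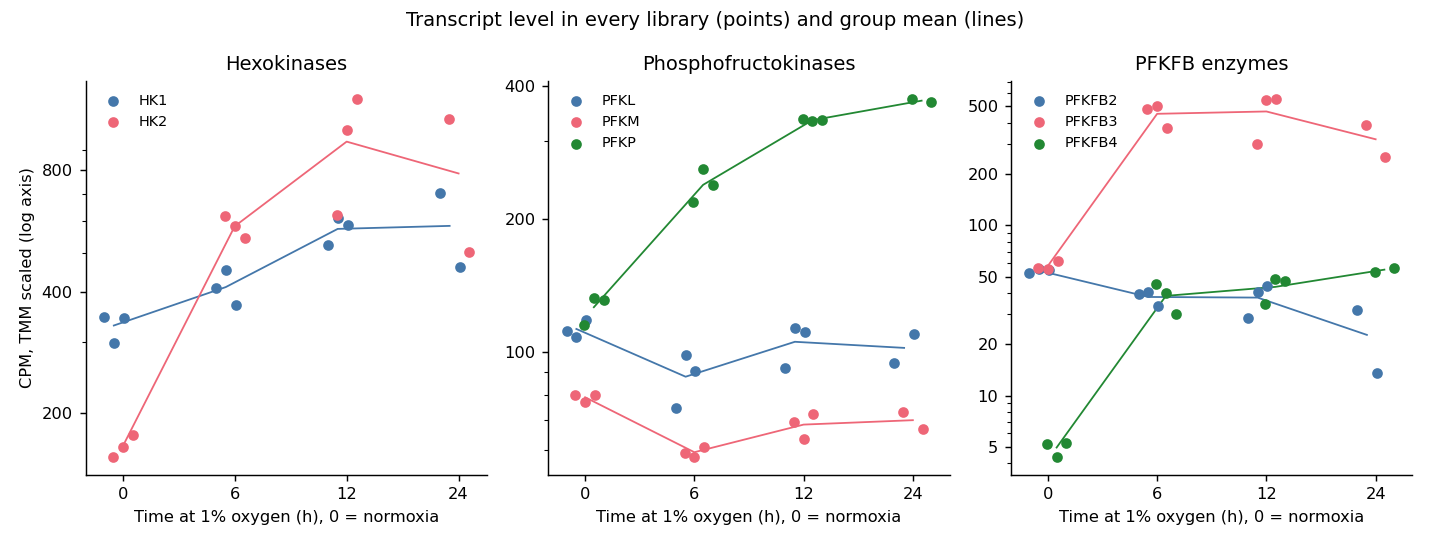
Points are libraries and lines join group means, with the time at 1% oxygen on the x axis and TMM-scaled CPM on a log y axis (n = 3 at 0, 6 and 12 h, n = 2 at 24 h). HK2, PFKP, PFKFB3 and PFKFB4 lie above their normoxic points in all 8 hypoxic libraries, and the 24 h pair of HK2 (1069.5 and 502 CPM) and of PFKFB2 (32.0 and 13.5 CPM) lie far apart.

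Among the phosphofructokinases only PFKP was called higher. PFKP stood at 115, 133 and 131 CPM in normoxia and at 219, 259.7 and 238 CPM after 6 h. It stood at 336, 333 and 336 CPM after 12 h, and at 374 and 367 CPM after 24 h. The 4 groups did not overlap and their order followed time, with the steps between hypoxic times smaller than the step from normoxia. All 8 hypoxic libraries lay above the 3 normoxic ones for 20.5% of tested genes. The share with 4 groups ordered in this way was not computed. The log2 fold change was 0.92 at 6 h (SE 0.13, edgeR adjusted p = 9.03e-05), 1.41 at 12 h (SE 0.13, adjusted p = 7.12e-06) and 1.55 at 24 h (SE 0.14, adjusted p = 3.39e-06), or 1.89-fold, 2.65-fold and 2.94-fold. PFKP (ENSG00000067057, chromosome 10, 3066333 to 3137718) shares 1.54% of its exonic bases with ENSG00000278419 on the same strand.

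PFKL (ENSG00000141959, chromosome 21, 44300051 to 44327376) and PFKM (ENSG00000152556, chromosome 12, 48105139 to 48146404) were slightly lower at 6 h and, with TMM scaling, were not called later. PFKM stood at 79.7, 77.1 and 80.0 CPM in normoxia and at 59.0, 57.9 and 61.0 CPM after 6 h, below every normoxic library. After 12 h it stood at 69.2, 63.7 and 72.5 CPM, and after 24 h at 73.2 and 66.9 CPM. It thus lay below normoxia in all 8 hypoxic libraries, which held for 25% of tested genes. Its log2 fold change was -0.41 at 6 h (SE 0.11, edgeR adjusted p = 0.00884), -0.21 at 12 h (adjusted p = 0.149) and -0.17 at 24 h (adjusted p = 0.259), with 0.0323 and 0.0475 at 12 h when 24 h replicate 1 or 2 was left out. Of PFKM's exonic bases 7.12% lie opposite exons of SENP1, and the strand setting of the counting is not given in the sources used here. PFKL stood at 112, 108 and 118 CPM in normoxia and at 74.7, 98.6 and 90.4 CPM after 6 h. Its later libraries, at 92.0, 113 and 111 CPM after 12 h and at 94.6 and 109.7 CPM after 24 h, overlapped the normoxic ones. The PFKL log2 fold change of -0.36 at 6 h lay at the threshold (SE 0.14, edgeR adjusted p = 0.04996). That call was lost without any of the 3 normoxic libraries, 6 h replicate 1, 6 h replicate 3 or 12 h replicate 3, with adjusted p up to 0.177. At 12 and 24 h the PFKL values were -0.10 (adjusted p = 0.594) and -0.14 (adjusted p = 0.456). Scaled by library totals alone, under which the median of all tested genes stood at -0.50 and -0.97, both genes were called lower at these times. PFKL then stood at -0.56 and -1.08 (edgeR adjusted p = 0.018 and 0.000574), and PFKM at -0.68 and -1.07 (adjusted p = 0.00851 and 0.000797).

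PFKP was the most abundant phosphofructokinase per exonic length already in normoxia, at 16.2 CPM per kb, beside 12.6 for PFKL and 10.9 for PFKM. By coding length (2505 bases for PFKP, 2340 for PFKL) the 2 lay closer, and PFKL led in normoxic replicate 1. By longest transcript, PFKM (3579 bases) lay above PFKL (6007 bases) in normoxia. The order at 0 h thus depends on the length used. Per exonic length, the PFKP share of the family rose from 38.6%, 42.9% and 40.9% in the normoxic libraries to 63.0%, 63.7% and 62.3% after 6 h. The share was 68.5%, 66.6% and 65.8% after 12 h, and 69.9% and 68.7% after 24 h. PFKL fell over the same times from a mean share of 31.8% to 20.1%, 18.3% and 16.6%, and PFKM from 27.4% to 16.9%, 14.7% and 14.1%. The plot of family makeup shows that these shares varied little between replicates. The summed level of the 3 genes was 39.8 ± 1.40 CPM per kb at 0 h and 48.8 ± 3.90, 64.3 ± 1.27 and 68.8 ± 0.03 CPM per kb at 6, 12 and 24 h (SD; n = 3, 3, 3 and 2), a smaller gain than in the other families.

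**Figure D3:**
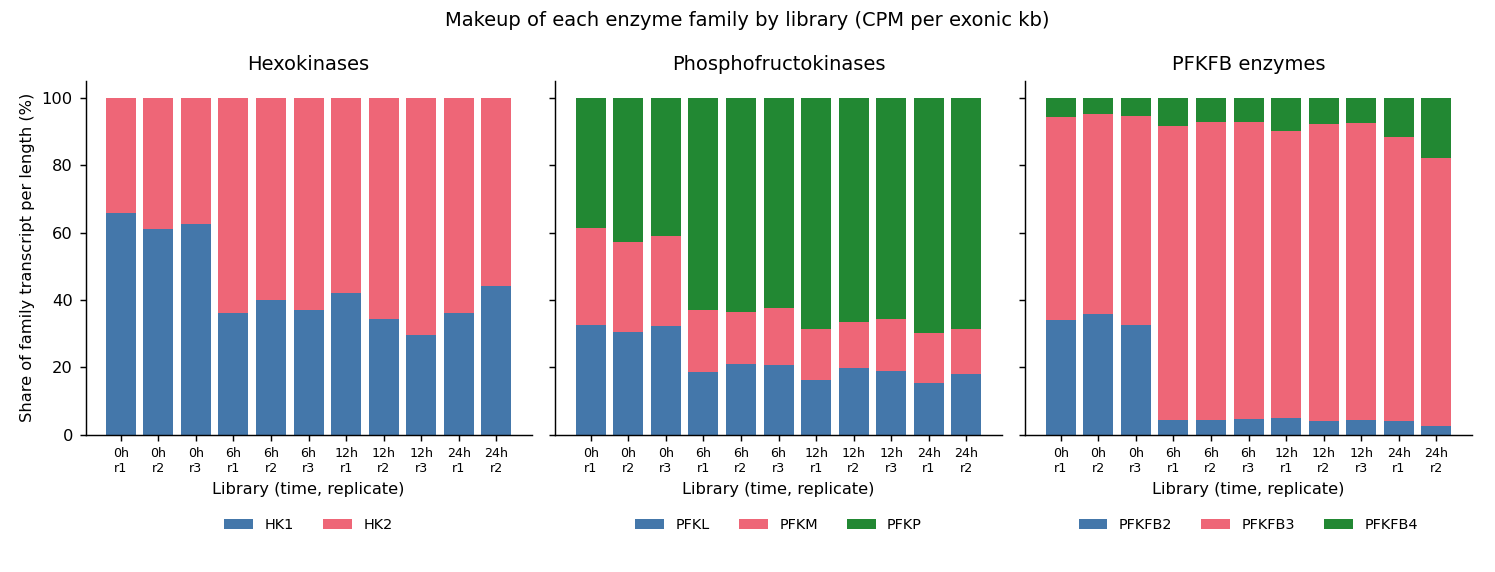
Each bar is 1 library, labelled by time and replicate, and its segments give the share of each isoform in the summed CPM per exonic kb of its family, in percent. Between normoxic and hypoxic bars the mean HK2 share passes from 36.9% to between 59.8% and 64.7%, that of PFKP from 40.8% to between 63.0% and 69.3%, and that of PFKFB2 from 34.2% to between 3.36% and 4.47%.

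The largest changes of the 8 were in PFKFB3 and PFKFB4. PFKFB3 (ENSG00000170525, chromosome 10, 6144934 to 6254644), the widely expressed inducible isoform, stood at 56.2, 55.3 and 62.1 CPM in normoxia and at 482, 503 and 372 CPM after 6 h. It stood at 299.9, 548 and 553 CPM after 12 h, and at 389.9 and 252 CPM after 24 h. The hypoxic libraries all lay far above the normoxic ones, and 20.5% of tested genes separated upward by any margin. PFKFB3 libraries of the 3 hypoxic times overlapped. The log2 fold change was 2.97 at 6 h (SE 0.26, edgeR adjusted p = 3.01e-06), 3.01 at 12 h (SE 0.26, adjusted p = 4.35e-06) and 2.47 at 24 h (SE 0.27, adjusted p = 9.81e-06), or 7.82-fold, 8.07-fold and 5.54-fold.

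PFKFB4 (ENSG00000114268, chromosome 3, minus strand, 48517684 to 48562015), an isoform known from testis and many tumours, started from a low level, with 164 to 226 counts in a normoxic library. It stood at 5.22, 4.37 and 5.29 CPM in normoxia, at 45.2, 40.2 and 30.2 CPM after 6 h, at 34.8, 48.6 and 47.3 CPM after 12 h, and at 53.5 and 56.5 CPM after 24 h. Both 24 h libraries lay above all earlier ones, whereas those of 6 and 12 h overlapped. The log2 fold change was 2.96 at 6 h (SE 0.19, edgeR adjusted p = 5.47e-07), 3.13 at 12 h (SE 0.19, adjusted p = 6.32e-07) and 3.47 at 24 h (SE 0.20, adjusted p = 4.02e-07), or 7.76-fold, 8.77-fold and 11.1-fold. UCN2, on the same strand, covers 4.88% of its exonic bases.

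PFKFB2 (ENSG00000123836, chromosome 1, 207034366 to 207081024), the isoform known from heart, moved the other way. It stood at 52.7, 55.6 and 54.5 CPM in normoxia, at 39.7, 40.9 and 33.5 CPM after 6 h, at 28.5, 40.8 and 43.8 CPM after 12 h, and at 32.0 and 13.5 CPM after 24 h. All 8 hypoxic libraries lay below the 3 normoxic ones, which held for 25% of tested genes. The call was made only at 24 h, with a log2 fold change of -1.25 (SE 0.29, edgeR adjusted p = 0.0028), against -0.51 at 6 h (SE 0.25, adjusted p = 0.102) and -0.53 at 12 h (SE 0.25, adjusted p = 0.0976). The 24 h value was -2.06 without 24 h replicate 1 and -0.78 without replicate 2. Leaving out either of these libraries from the shared fit gave adjusted p values of 0.0051 and 0.00559 at 6 h and of 0.00478 and 0.00634 at 12 h. YOD1 lies opposite 3.1% of its exonic bases.

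In normoxia PFKFB3 and PFKFB2 thus had nearly the same CPM, and per length PFKFB3 held 60.4%, 59.4% and 62.0% of the family in the 3 libraries. With coding length as the measure, PFKFB2 had the larger mean share at 0 h, 48.9% beside 46.3% for PFKFB3, so that their order at 0 h depends on the length used. In hypoxia the PFKFB3 share was 87.5%, 88.6% and 88.1% after 6 h, 85.2%, 88.2% and 88.2% after 12 h, and 84.3% and 79.5% after 24 h. PFKFB4 held 4.70% to 5.62% in normoxia and 7.09% to 9.89% at 6 and 12 h, and 11.6% and 17.9% at 24 h. The family sum was 15.6 ± 0.66 CPM per kb at 0 h and 84.1 ± 13.0, 87.2 ± 25.7 and 63.7 ± 16.9 CPM per kb at 6, 12 and 24 h (SD; n = 3, 3, 3 and 2), or 5.39-fold, 5.59-fold and 4.08-fold of normoxia.

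Isoforms of a family were next compared within each library, since a ratio of counts from 1 library does not change with the scaling between libraries. For 7 pairs the log2 ratio was compared between the 8 hypoxic and the 3 normoxic libraries by an exact two-sided permutation test over 165 splits, in which the smallest possible p is 0.0121. HK2 had 0.45, 0.55 and 0.51 counts for each count of HK1 in normoxia and between 1.09 and 2.06 in hypoxia, a log2 shift of 1.52. The ratio of PFKP to PFKL was 1.03 to 1.23 in normoxia and 2.63 to 3.96 in hypoxia, a log2 shift of 1.48. The ratio of PFKP to PFKM shifted by 1.54, from 1.44 to 1.72 counts up to 3.71 to 5.49 counts.

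The PFKFB pairs shifted most. PFKFB3 had 0.99 to 1.14 counts for each count of PFKFB2 in normoxia and 10.5 to 18.6 in hypoxia, a log2 shift of 3.57. For PFKFB4 and PFKFB2 the ratio was 0.08 to 0.10 in normoxia and 0.90 to 4.18 in hypoxia, a log2 shift of 3.89. In each of these 5 pairs every hypoxic library lay above every normoxic one, with exact permutation p = 0.0121, the smallest the design allows, and 0.017 after Benjamini-Hochberg adjustment over the 7 pairs. Where replicate numbers were kept as blocks, or medians compared in place of means, the adjusted p values were 0.0583 and 0.0679 with shifts of like size. Full separation is frequent in these data. For single genes, all 8 hypoxic libraries lay above the 3 normoxic ones for 20.5% of tested genes and below for 25%. The share of pairs of other genes that separate as fully was not computed, so these p values do not set the 5 pairs apart.

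The other 2 pairs overlapped between conditions. The ratio of PFKL to PFKM was 1.40 to 1.48 in normoxia and 1.27 to 1.78 in hypoxia, a log2 shift of 0.06 (exact permutation p = 0.582, adjusted p = 0.582). The ratio of PFKFB4 to PFKFB3 was 0.08 to 0.09 in normoxia, and its mean was 0.99-fold, 1.12-fold and 2.05-fold of normoxia at 6, 12 and 24 h. Over all hypoxic libraries its log2 shift was 0.31 (exact permutation p = 0.315, adjusted p = 0.368), and only the 24 h pair, at 0.14 and 0.22, lay above the other hypoxic libraries. No transcript 75-mer is shared between isoforms of a family, so reads of at least this length do not match 2 isoforms exactly. The study's trimming allowed shorter reads, for which this was not checked.

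**Figure D4:**
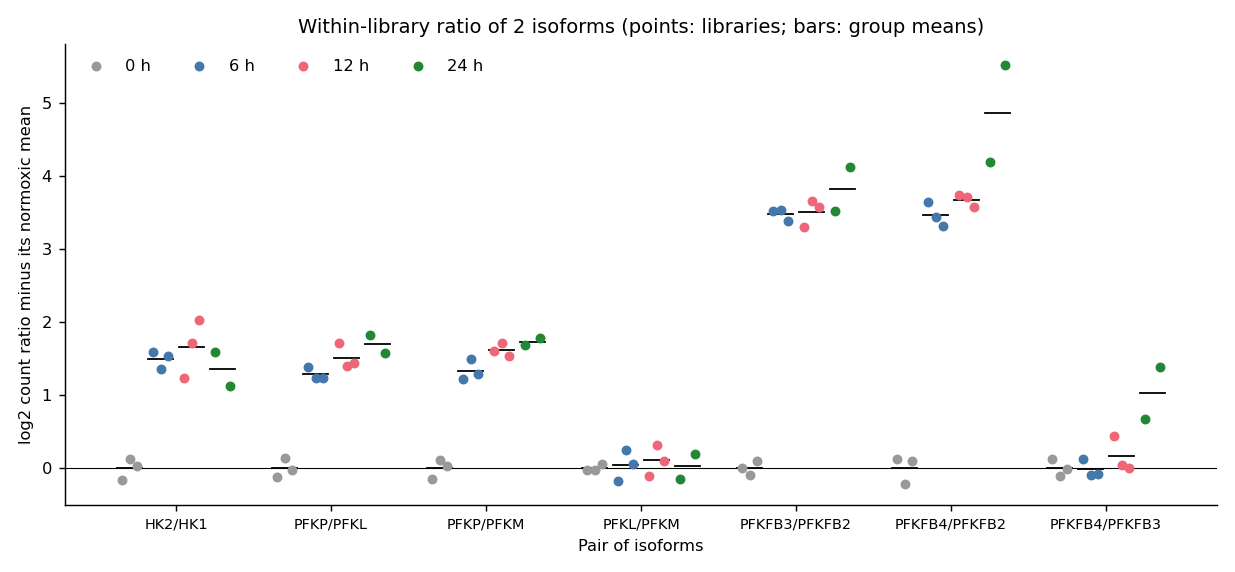
Each point is 1 library and shows the log2 ratio of the counts of 2 isoforms minus the mean of that ratio in the 3 normoxic libraries, with bars for group means and colours for time. The 5 pairs with an adjusted p of 0.017 have all hypoxic points above 1 and all normoxic points near 0, whereas PFKL/PFKM stays near 0 and PFKFB4/PFKFB3 leaves 0 mainly at 24 h.

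Comparisons among hypoxic times asked whether isoforms changed after the first 6 h. From 6 to 12 h, 1 member was called, beside 4.95% of tested genes (1.88% higher). It was PFKP, with a log2 fold change of 0.49 (SE 0.13, edgeR adjusted p = 0.0485). From 6 to 24 h, 2 members were called, both higher, beside 42.4% of tested genes (22.1% higher). These were PFKP, at 0.63 (SE 0.14, adjusted p = 0.00368), and PFKFB4, at 0.51 (SE 0.19, adjusted p = 0.049). From 12 to 24 h, 0 of the 8 were called by edgeR, DESeq2 or limma-voom, beside 28.4% of tested genes, and 1, PFKFB2, had an unadjusted p under 0.05 in edgeR. Groups did not overlap for 4 members in the 6 to 12 h comparison (31.6% of tested genes), 2 in the 12 to 24 h comparison (49.1%) and 5 in the 6 to 24 h comparison (53.3%). HK2 and PFKFB3 had log2 fold changes of -0.26 (adjusted p = 0.546) and -0.54 (adjusted p = 0.146) from 12 to 24 h. The calls of PFKP at 12 h and of PFKFB4 lay close to the threshold, and each was lost in 9 of 11 fits that left out 1 library. That of PFKP was kept without either 24 h library, and that of PFKFB4 without 6 h replicate 1 or 12 h replicate 1. When libraries were scaled by their totals alone, PFKFB4 stood at -0.09 and PFKP at 0.04 at 24 h against 6 h, and neither was called.

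Further isoforms of these families were scarce. HK3 had at most 3 counts in a library and PFKFB1 at most 17, and neither passed the filter. HKDC1, a hexokinase with a domain structure like that of HK1, had 9 to 37 counts and stayed at or below 0.89 CPM in every library. It was lower at 6 h, with a log2 fold change of -1.15 (SE 0.30, edgeR adjusted p = 0.00669), and was not called at 12 h (-0.32, adjusted p = 0.366) or 24 h (0.07, adjusted p = 0.872).

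Enzymes that oppose or bypass these steps were mostly near the detection limit. The gluconeogenic fructose bisphosphatases FBP1 and FBP2 had at most 3 and 5 counts in a library, and GCKR, G6PC1 and G6PC2 at most 3, 1 and 0. Of the 8 genes of the list, TIGAR, G6PC3 and ADPGK were tested. TIGAR, a phosphatase that breaks down fructose 2,6-bisphosphate, stood at 11.6, 12.1 and 10.7 CPM in normoxia, at 15.8, 19.7 and 25.8 CPM after 6 h, and at 5.78 and 7.79 CPM after 24 h. It was higher at 6 h, with a log2 fold change of 0.84 (SE 0.19, edgeR adjusted p = 0.0027), and lower at 24 h, with -0.76 (SE 0.22, adjusted p = 0.0103), and its 12 h value was 0.40 (adjusted p = 0.0951). G6PC3, a glucose 6-phosphatase, and ADPGK, a kinase that uses ADP to phosphorylate glucose, were called at no time against 0 h.

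The enzymes around the 3 families were examined as lists. Of 12 genes for the other glycolytic steps 11 were tested, and all 11 were called higher at 6, 12 and 24 h. Of all tested genes 14.8% were called higher at all 3 times. The median log2 fold changes of the 11 were 1.46, 1.90 and 2.48. LDHA, which makes lactate, stood at 3.16, 3.42 and 3.86 on the log2 fold change scale. TPI1, the triose phosphate isomerase, stood at 2.04, 2.39 and 3.53, and PGK1, the first ATP-forming enzyme of the lower pathway, at 2.14, 2.22 and 2.72. All adjusted p values of these 3 genes were at most 1.43e-05 by edgeR, and each of the genes has processed pseudogenes elsewhere that may take some of its reads. HK2, PFKP, PFKFB3 and PFKFB4 were likewise higher at all 3 times, whereas PFKL, PFKM and PFKFB2 were called higher at no time.

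Glucose transporters and branch enzymes were mixed. Of 6 tested transporters, 2 were higher at each time, and 2, 3 and 2 were lower at 6, 12 and 24 h. Of all tested genes, 25.1%, 24.2% and 29.9% were called higher and 27.7%, 27.1% and 31.3% lower at these times. The transporter counts by themselves thus set that list little apart. SLC2A3 (GLUT3), whose near-identical copy SLC2A14 may take some of its reads, stood at 4.15, 4.56 and 4.58, and SLC2A1 (GLUT1) at 1.78, 2.36 and 3.06 on the log2 fold change scale. SLC2A12 stood at -1.85, -1.12 and -1.74. Of 12 enzymes that draw sugar phosphates into the pentose phosphate, glycogen, hexosamine and related routes, 5, 6 and 7 were higher and 1 was lower at each time. These counts stand beside the same shares of all tested genes. TKT and PGD of the pentose phosphate pathway and PGM1 of glycogen metabolism reached 1.94, 1.37 and 1.74 at 24 h. The plot of the surrounding genes gives all tested values.

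**Figure D5:**
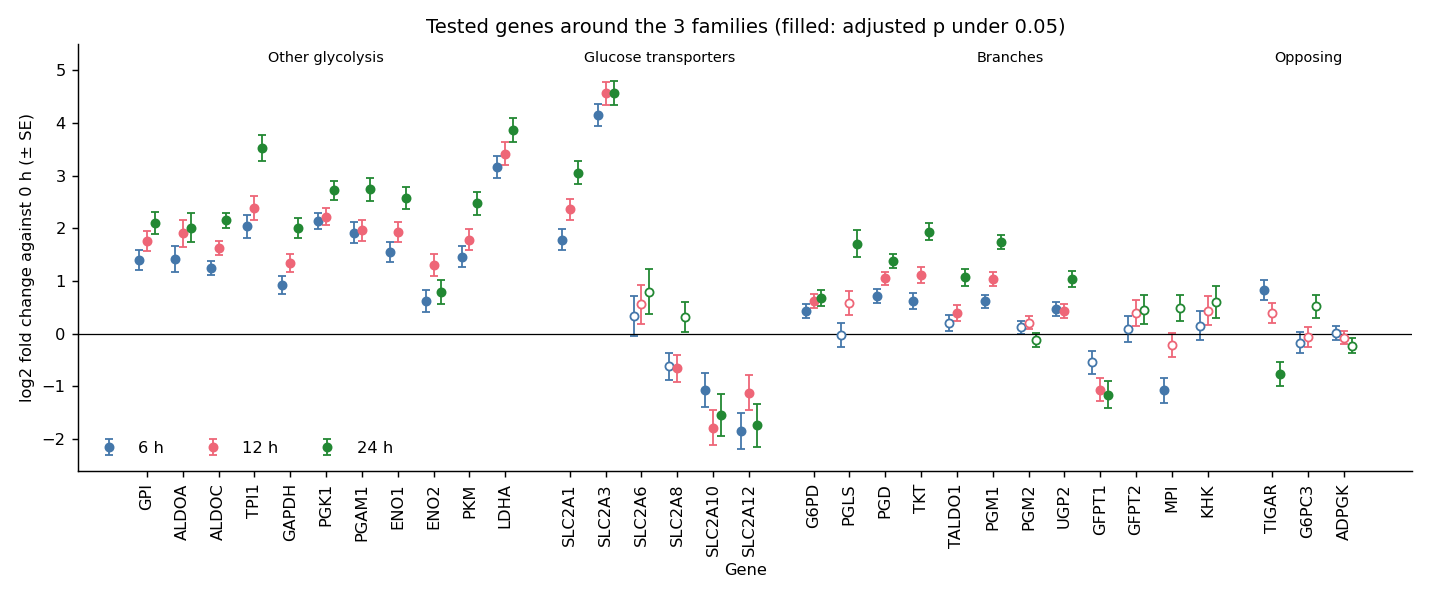
The y axis gives the edgeR log2 fold change against the 3 normoxic libraries with bars of 1 standard error, for each tested gene of the 4 lists named above the groups, and colours give the time. Filled points had an adjusted p under 0.05. All 11 glycolytic genes are filled and above 0, SLC2A3 and SLC2A1 are the highest transporters, and TIGAR passes from 0.84 at 6 h to -0.76 at 24 h.

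The genes whose time course most resembled each member called at all 3 times were found among 13939 genes with a symbol and a mean of at least 1 CPM, by the root mean square difference of log2 CPM (each gene minus its normoxic mean) over the 8 hypoxic libraries. For HK2 they were SYT11 (0.28), ITGA5 (0.34) and NDRG1 (0.37). For PFKFB3 they were FUT11 (0.22), CA12 (0.30) and TCAF2C (0.31), and for PFKFB4 they were PAQR5 (0.21), P4HA1 (0.29) and LDHAP7 (0.30), the last a pseudogene of LDHA. For PFKP they were SRSF3P4 (0.17), CTNNBL1 (0.17) and SRSF3P5 (0.18), of which SRSF3P4 and SRSF3P5 are pseudogenes. None of the 12 nearest genes was another member, and the points of each profile share libraries and depth.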

How the data were processed

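RNA from 11 libraries of RWPE1 cells was analysed from the table of whole-number counts per Ensembl gene that the authors deposited, neither filtered nor normalized. Per the labels and the study's methods, reads were trimmed with Trimmomatic, aligned with STAR to hg38 and counted with featureCounts, and libraries came from a stranded TruSeq kit, built in 1 batch and read as single ends. The strand setting and the handling of multiply matching reads are not given in the sources used here. Libraries held 27496009 to 49488345 counts.

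Genes were kept by filterByExpr (minimum count 10, minimum total 15) and scaled with TMM. edgeR 4.0.16 (glmQLFit and glmQLFTest, R 4.3.3) used 1 fit of the 11 libraries with time point as the factor, which gives the pair at 24 h the spread of all groups. Adjustment was by Benjamini-Hochberg over the 19981 tested genes. The study tested with limma-voom, which was run as an alternative (limma 3.58.1), as was DESeq2 1.42.0. Isoform ratios had 0.5 added to each count and were tested by a purpose-written exact permutation. Its p-value was checked against that of scipy 1.17.1 on random numbers. Levels between genes were compared per kb of exonic sequence from GENCODE 44 on GRCh38. The fit was tested on simulated counts with known changes.

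The members and gene lists were chosen with earlier results of these data known. Named genes are the 8 members, the other isoforms of their families (of which not all are reported here), up to 3 genes a list with the largest mean change among those called at all 3 times, and the 3 nearest profiles of each member called at all 3 times. TIGAR, G6PC3, ADPGK, the untested members of that list, HK2P1 and HK2-DT were named after their values were seen.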

Additional observations from a re-analysis of the deposited data

Results flagged for a closer look

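The change from normoxia differed between hypoxic times, by edgeR's test of the difference itself, for 2 members. PFKP stood 0.49 (log2) higher at 12 h than at 6 h and 0.63 higher at 24 h than at 6 h, above all 3 of the 6 h libraries in both cases. PFKFB4 stood 0.51 higher at 24 h than at 6 h, with both 24 h libraries above all 3 of the 6 h libraries. Each of the 3 differences was lost in some other fits. That of PFKP from 6 to 24 h was 0.60 with limma-voom and quality weights (adjusted p = 0.122), 0.60 with only the 2 groups compared (adjusted p = 0.097) and 0.04 with scaling by library totals alone (adjusted p = 0.874). Groups of 2 or 3 libraries were too small for a test of single outlying libraries.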

How the results depend on the processing

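Over the alternatives, 5 to 8 members were called for 6 h against 0 h, 5 to 7 for 12 h and 6 to 7 for 24 h, and HK2, PFKP, PFKFB3 and PFKFB4 kept direction and call at all 3 times in each of them. Calls over all genes, of 14492 to 39835 tested, also varied. They ran from 7893 to 13182 at 6 h, from 7566 to 14908 at 12 h and from 6169 to 13527 at 24 h. Scaling by library totals alone turned the sign of HK1 to -0.005 at 6 h and -0.027 at 24 h, and of PFKFB4 at 24 h against 6 h to -0.089. The median of all genes moved under this scaling by -0.32, -0.50 and -0.97 at 6, 12 and 24 h. From 6 to 12 h the count of called members, 1, was 3 with limma-voom and sample quality weights and 2 with only the 2 groups compared. It was 0 with median-of-ratios factors, with library totals and without any 1 normoxic, 6 h or 12 h library. Fits that left out a 24 h library kept 1 library in that group, and their counts between hypoxic times are not given. From 12 to 24 h the count of called members, 0, was 2 without a filter on low counts and 2 without 12 h replicate 1. From 6 to 24 h the count, 2, was 0 with quality weights, 5 with DESeq2 and 0 with only the 2 groups compared. It was at least 1 without any 1 normoxic, 6 h or 12 h library. Calls over all tested genes moved as well. From 6 to 12 h they were 989 in the main fit, 4489 with quality weights and 1876 with only the 2 groups. They were 1036 there with median-of-ratios factors and 690 with library totals. With 1 normoxic, 6 h or 12 h library left out they ran from 61 to 1003. From 12 to 24 h they were 5668 in the main fit, 6144 without a filter and 5210 without 12 h replicate 1. They fell there to 1093 with quality weights and to 0 of 17807 with only the 2 groups compared. From 6 to 24 h they were 8479, 2531 with quality weights, 8787 with DESeq2 and 3916 with only the 2 groups. With 1 normoxic, 6 h or 12 h library left out they ran from 7019 to 8345. The cause of these differences was not tested. Scaling by library totals also ended the HK1 call at 12 h (0.33), and called PFKL and PFKM lower at 12 and 24 h and PFKFB2 at 12 h (-0.99, adjusted p = 0.0319). The PFKL call at 6 h was lost with median-of-ratios factors (adjusted p = 0.0564) and without a filter (0.0862).

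No pairing by replicate number was seen: correlations of deviations had a median of -0.05 between same-numbered libraries (15 pairs, 2 over 0.1) and 0.02 between others. Deviations from means of 2 or 3 libraries are tied to each other, so this check cannot decide whether libraries were paired. With a replicate block the counts called were 0 from 6 to 12 h and 1 from 6 to 24 h, beside 510 and 7607 of all tested genes. With the block, which allows 48 arrangements, the ratio shifts of 1.52 (HK2/HK1), 1.48 (PFKP/PFKL), 1.54 (PFKP/PFKM), 3.57 (PFKFB3/PFKFB2) and 3.89 (PFKFB4/PFKFB2) each had an adjusted p of 0.0583. As differences of medians they were 1.54, 1.43, 1.53, 3.52 and 3.58 in that order (adjusted p = 0.0679). With 1 library left out they ran from 1.44 to 1.59, 1.42 to 1.54, 1.47 to 1.59, 3.50 to 3.62 and 3.66 to 3.97, with adjusted p values up to 0.0622 without a normoxic library, where 45 splits limit them. With all 8 against 3 libraries the exact test cannot give a p below 0.0121, and members had at least 164 counts in every library, so that the number of libraries sets the limit of these tests.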

Other observations

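HK2-DT, a noncoding gene that starts head to head with HK2 on the other strand (chromosome 2, 74832655 to 74833987), was looked at after its values were seen. It had 67 to 98 counts in the normoxic libraries and 0 to 18 in the hypoxic ones. Its levels were 1.85, 1.79 and 2.36 CPM in normoxia and at most 0.53 CPM in any hypoxic library. The log2 fold change was -2.55 at 6 h (SE 0.42, edgeR adjusted p = 0.000313), -2.35 at 12 h (SE 0.42, adjusted p = 0.000593) and -3.99 at 24 h (SE 0.65, adjusted p = 0.000211), opposite in sign to HK2 in all 8 hypoxic libraries. The other divergent noncoding gene at these loci, PFKP-DT, had 3 to 12 counts in a library and was not tested.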
